A study of Mus musculus with 2 samples.

Results

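Monocytes that enter fat bring with them a set of transcripts that resident macrophages carry at other levels, and 9 such genes were followed here in adipose tissue macrophages (ATM). The genes were Ly6c2, Plac8, Vcan, Fn1, Ear2, Cd209a, Napsa, Lyz1 and Lyz2, taken as a named list with no threshold on their measured values. Of these 9 genes, 8 had a row among the 20330 gene identifiers of the deposited table. The identifier of Ear2, which encodes an eosinophil-associated ribonuclease, had no match, and Ear2 was not analysed here.

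ATM were isolated from visceral fat of C57BL/6 mice after 12 weeks of high-fat diet by sorting with antibodies to F4/80 and CD11b. Both genotypes were labelled ApoE-/- and Hif-1α fl/fl. The WT library came from hMRP8cre- mice and the KO library from hMRP8cre+ mice, in which the human MRP8 (S100A8) promoter, known for its activity in myeloid cells, drives Cre. Each genotype was represented by 1 library, so no value has a replicate error, no test between genotypes was possible and no p-value is given. By the study's methods the diet was begun in young mice. The number of animals behind a library is not given in the sources used here.

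Classical monocytes carry Ly6C on their surface, leave the blood through the CCR2 receptor and lose Ly6C as they turn into macrophages or dendritic cells within a tissue. Obese fat is known to recruit them. Lysozyme, fibronectin and versican transcripts are abundant in monocytes, and the first of these are also made by many mature macrophages, so the 9 genes mark an origin only in combination and none of them is exclusive to monocytes.

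Values are FPKM, fragment numbers divided by transcript length and by the depth of the library, so levels of different genes can be set side by side. The FPKM of all genes summed to 585823 for WT and 568329 for KO. Above 0 were 9773 genes of the WT library and 10124 of the KO library. The depth estimated from a recurring low FPKM step was about 5950000 fragments for WT and 7530000 for KO. This is a rough figure, resting on 7 genes in WT and 10 in KO, and all fragment numbers below depend on it. Hif1a, the targeted gene, was at 30.4 FPKM for WT and 20.97 for KO, and the table gives no value for the deleted part alone. Apoe was at 94.3 FPKM for WT and 117 for KO although both libraries are labelled ApoE-/-, so transcript was counted in both, and which part of the gene it came from cannot be told from a single value per gene. Among 11 matched subunits of RNA polymerase II, which every cell needs, 2 were listed at 0 for WT and 1 for KO, so a value of 0 in this table was read only as a listing. Of 9 macrophage markers compared, 0 differed by 3-fold, and their summed level was 11328 FPKM for WT and 10511 for KO. Over all compared genes 27.3% differed by 3-fold. All 9 markers had a mean of 20 FPKM or more, where only 2.14% to 11.7% of genes did, so this count says little.

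Both lysozyme genes and the Ly6c pair are shown first at the level of sequence, because reads from near-identical genes can be credited to the wrong copy. The coding sequences were read from GENCODE M21 transcripts on GRCm38, whereas mm9 is the build named in the submitters' processing notes. Lyz1 lies at chr10:117287797-117292868 and Lyz2 at chr10:117277331-117282321, both on the minus strand with 5475 bases between them. Their coding sequences differ at 22 of 444 bases and their proteins at 12 of 148 residues. The first 300 coding bases of each are given 5′ to 3′ with the 20 bases that differ in capitals.
Lyz1: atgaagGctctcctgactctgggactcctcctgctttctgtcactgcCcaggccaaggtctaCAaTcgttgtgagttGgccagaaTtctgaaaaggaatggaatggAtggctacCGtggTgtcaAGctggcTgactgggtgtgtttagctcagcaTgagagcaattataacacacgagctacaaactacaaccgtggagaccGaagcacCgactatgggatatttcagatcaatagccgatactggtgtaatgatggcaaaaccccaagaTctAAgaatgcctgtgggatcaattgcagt
Lyz2: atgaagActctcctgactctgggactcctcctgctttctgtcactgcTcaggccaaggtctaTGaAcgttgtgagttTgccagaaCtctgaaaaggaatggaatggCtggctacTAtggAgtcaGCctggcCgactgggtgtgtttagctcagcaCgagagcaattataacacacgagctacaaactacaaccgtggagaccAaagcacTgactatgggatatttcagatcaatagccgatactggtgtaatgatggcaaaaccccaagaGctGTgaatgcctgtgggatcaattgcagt

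Ly6c2 lies at chr15:75108158-75111970 and Ly6c1 at chr15:75044018-75048830, both on the minus strand of GRCm38. Ly6c2 encodes the Ly6C antigen of classical monocytes, and Ly6c1 is known in endothelial and lymphoid cells as well. The Ly6c1 coding transcript closest to Ly6c2 was used for this comparison, and the longest annotated one has 441 coding bases against 393 in Ly6c2. Over 393 bases the coding sequences differ at 9, of which 7 fall within the first 300 bases shown, in capitals.
Ly6c2: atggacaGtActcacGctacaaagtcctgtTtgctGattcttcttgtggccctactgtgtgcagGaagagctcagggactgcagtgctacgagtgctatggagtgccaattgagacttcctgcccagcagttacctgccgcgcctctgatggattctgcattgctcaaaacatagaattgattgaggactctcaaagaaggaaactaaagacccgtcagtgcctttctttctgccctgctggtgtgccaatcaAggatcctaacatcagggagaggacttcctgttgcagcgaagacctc
Ly6c1: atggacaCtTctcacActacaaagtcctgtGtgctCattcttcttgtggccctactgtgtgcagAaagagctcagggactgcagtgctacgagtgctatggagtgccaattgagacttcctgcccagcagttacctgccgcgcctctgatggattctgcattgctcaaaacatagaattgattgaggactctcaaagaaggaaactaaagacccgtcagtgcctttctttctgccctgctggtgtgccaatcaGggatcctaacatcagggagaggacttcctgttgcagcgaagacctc

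Differences of this kind leave long stretches in common. For each gene the windows were taken from the annotated transcript with the longest coding sequence. Of the 50-base windows of Ly6c2, 33.0% occurred unchanged in a transcript of another gene, 252 of 255 of them in Ly6c1. The share was 16.1% for Lyz1 and 15.4% for Lyz2, all with each other, and 10.9% for Napsa, all with Gm15396. It was 2.42% for Fn1, and 0% for Plac8, Vcan and Cd209a. For 100-base windows the share was 15.8% for Ly6c2, 2.06% for Lyz1, 1.97% for Lyz2, 4.38% for Napsa and 1.83% for Fn1. The read length is not given in the sources used here. For Lyz1, Lyz2, Ly6c2 and Napsa, and for a small stretch of Fn1, the assignment of reads is uncertain, and the sums of the lysozyme pair and the Ly6c pair are given beside the single values.

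The positions of the other matched genes are likewise those of GRCm38. Plac8 (ENSMUSG00000029322) lies at chr5:100553725-100572245, Vcan (ENSMUSG00000021614) at chr13:89655312-89742509 and Fn1 (ENSMUSG00000026193) at chr1:71585520-71653200, all on the minus strand. Napsa (ENSMUSG00000002204) lies on the plus strand at chr7:44572380-44586862 and Cd209a (ENSMUSG00000031494) on the minus strand at chr8:3743397-3748984. The identifiers of the near-identical genes were ENSMUSG00000069515 for Lyz1, ENSMUSG00000069516 for Lyz2 and ENSMUSG00000022584 for Ly6c2. The table gives 1 value per gene and library and no coordinates of its own.

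**Figure D1:**
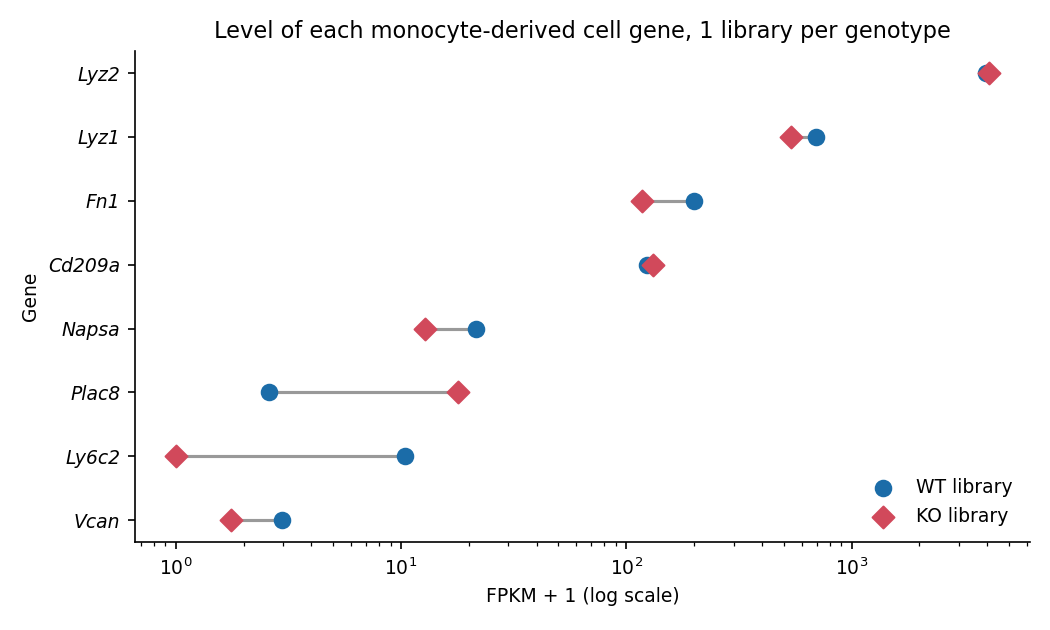
FPKM + 1 on a log axis for the 8 matched genes, ordered by mean level, with a circle for the WT library and a diamond for the KO library. The gap is widest for Plac8, from 1.58 FPKM in WT to 16.96 in KO, and for Ly6c2, from 9.39 to a listed 0, while Lyz2 and Cd209a nearly coincide.

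The 8 genes spanned a wide range of levels. Lyz2 was the highest, followed by Lyz1, and Fn1 and Cd209a changed places between the libraries. In the WT library Napsa, Ly6c2, Vcan and Plac8 followed in that order. In the KO library the order was Plac8, Napsa, Vcan and Ly6c2. With 1 library per genotype it cannot be said which neighbours in this order differ beyond a replicate spread. Together the 8 genes held 0.851% of all FPKM in the WT library and 0.861% in the KO library, and Lyz2 alone held 79.0% and 83.3% of that.

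At a 3-fold difference on the scale of log2(FPKM + 1), 1 of the 8 genes was higher in KO (Plac8), 1 was lower (Ly6c2) and 6 were within the threshold. Over the 10297 genes with at least 1 FPKM in 1 library or more, 27.3% passed 3-fold, 13.6% higher and 13.7% lower, so 2 of 8 is close to the share of all genes. The median difference of the 8 genes was -0.56, against 0.03 over all compared genes. All 8 genes were compared, of which Ly6c2 and Vcan reached 1 FPKM only in WT, the library where they were higher.

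**Figure D2:**
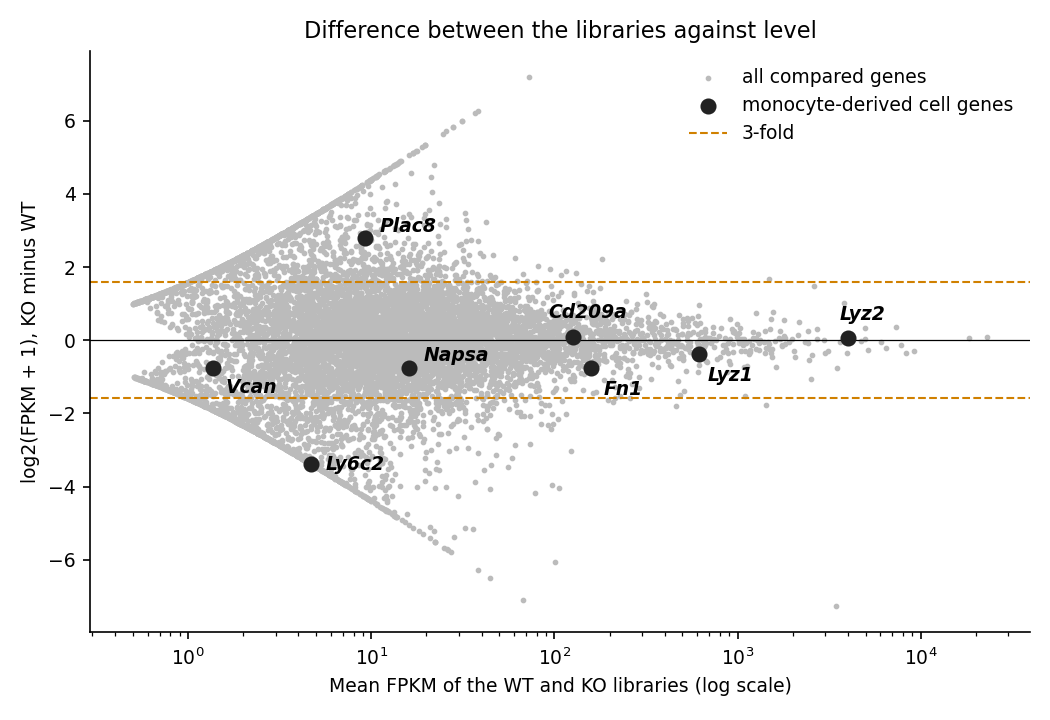
Difference in log2(FPKM + 1), KO minus WT, against mean FPKM of both libraries on a log axis, with the 10297 compared genes in grey, the 8 matched genes in black and dashed lines at 3-fold. Plac8 and Ly6c2 lie outside the lines at low level, where many other genes also do, and the 4 genes above 100 FPKM lie inside them.

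How far any gene differed between these libraries depended on its level. Of 748 genes at a mean of 100 FPKM or more, 2.14% passed 3-fold, and 95% of them lay between -1.36 and 1.03. The share was 20.6% of genes at 10 to 20 FPKM, where Napsa lies, and 32.4% at 5 to 10 FPKM, where Plac8 lies. It was 49% at 2 to 5 FPKM, the range of Ly6c2, and 64.3% at 1 to 2 FPKM, the range of Vcan. These spreads are across genes, which are not replicates.

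Lysozyme degrades bacterial cell walls, and Lyz2 encodes the form made by macrophages, monocytes and neutrophils. Lyz2 was at 3936 FPKM for WT and 4079.7 for KO, the 16th and the 14th highest of all genes, with a difference of 0.05. Lyz1, known as the form of Paneth cells, was at 694 FPKM for WT and 538 for KO, a difference of -0.37. Both differences lay inside the middle 95% of genes at 100 FPKM or more. The pair summed to 4630.3 FPKM for WT and 4618 for KO, a ratio of KO to WT of 0.997. Lyz2 was 5.67 times as high as Lyz1 in WT and 7.58 times as high in KO, a quantity that depends on how reads were split between the copies. Of the 8 genes Lyz2 rests on the most fragments, an estimated 30837 and 40427, followed by Fn1 with 9083 and 6778 and Lyz1 with 5221 and 5116.

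Fibronectin and versican are extracellular matrix molecules that monocytes secrete after leaving the blood. Fn1, which encodes fibronectin, was at 198 FPKM for WT and 117 for KO. This is a difference of -0.76, or a WT to KO ratio of 1.69, and it lay inside the middle 95% of genes at its level. Vcan, a large chondroitin sulphate proteoglycan, was at 1.97 FPKM for WT and 0.766 for KO, a difference of -0.75. Vcan has 8 annotated coding transcripts of very unequal length, so its fragment number is poorly fixed, from 3 to 146 in WT and from 2 to 72 in KO between the shortest and the longest. Both matrix genes were lower in KO, neither by 3-fold.

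Genes that bind or modify these matrix molecules were examined as a list. Of 11 compared, 0 were higher and 2 were lower in KO by 3-fold, with a median of -0.08. The share of all compared genes lower by 3-fold was 13.7%, so 2 of 11 is near it. Those 2 were Tgm2, a transglutaminase that crosslinks fibronectin, at 28.5 FPKM for WT and 8.03 for KO, and Adamts4, a protease that cleaves versican, at 5.71 in WT and listed at 0 in KO. The fibronectin receptor subunit Itga5 was at 98.8 FPKM for WT and 93.4 for KO, and its partner Itgb1 was at 71.4 and 49.9. Cd44, a hyaluronan receptor, was at 191 and 181 FPKM, and Tlr2, a receptor that versican can engage, at 293 and 295. Hapln1, Has2, Itgb3 and Adamts5 were listed at 0 in both libraries.

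Fn1 and Vcan are also made by fibroblasts, whose markers had higher values in KO where Fn1 and Vcan had lower ones. All 6 fibroblast markers compared had a higher value in KO, 2 of them by 3-fold, and the summed level of the 7 markers was 49.2 FPKM for WT and 95.3 for KO. Over all compared genes 13.6% were higher by 3-fold, and both genes past it reached 1 FPKM only in KO, where they were high. Col1a2 was at 0.0948 and 4.75 FPKM, Pdgfra at 0.0246 and 4.98, and Dcn, the highest, at 35.0 and 62.3. Of 6 mesothelial markers, 5 were listed at 0 in both libraries, and Upk3b was listed at 0 for WT and at 7.84 FPKM for KO. The part of these cells in the Fn1 and Vcan values was not tested.

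Ly6c2 was at 9.39 FPKM in WT and was listed at 0 in KO. The WT value corresponds to an estimated 36 fragments, with an exact Poisson 95% interval of 25.2 to 49.8 for counting error only. In KO, 3 fragments of its transcript would correspond to 0.624 FPKM. Ly6c1 was at 26.8 FPKM for WT and 7.92 for KO, a difference of -1.64 that also passed 3-fold. The sum of both genes, which depends less on how reads were divided between them, was 36.2 FPKM for WT and 7.92 for KO, a difference of -2.06 or a WT to KO ratio of 4.57. The KO sum is Ly6c1 alone and takes the listed 0 of Ly6c2 as it stands, so this ratio holds only if that 0 is not a failed estimate. The difference of Ly6c2 itself was -3.38, a value that the pseudocount sets because KO is listed at 0. Alone of the 8 genes, it lay outside the middle 95% of genes at its level, from -3.16 to 3.21 at 2 to 5 FPKM, but a gene of this mean with a 0 in 1 library lies at the edge of that range by construction. Of the genes at this level, 28.2% were likewise listed at 0 in 1 library.

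In a sorted population, fewer Ly6C+ cells and less Ly6c RNA per cell cannot be told apart. Since Ly6c1 is also made by endothelium, endothelial markers were set beside it. Of 4 compared, 1 was lower by 3-fold, against 13.7% of all compared genes. It was Tie1, at 4.12 FPKM in WT and listed at 0 in KO, which reached 1 FPKM only in WT, where it was higher. Pecam1 was at 6.67 and 8.70 FPKM and Cdh5 at 5.53 and 5.98, and the 6 markers summed to 17.7 FPKM for WT and 16.0 for KO. The part of endothelial RNA in the Ly6c1 values was not tested.

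**Figure D3:**
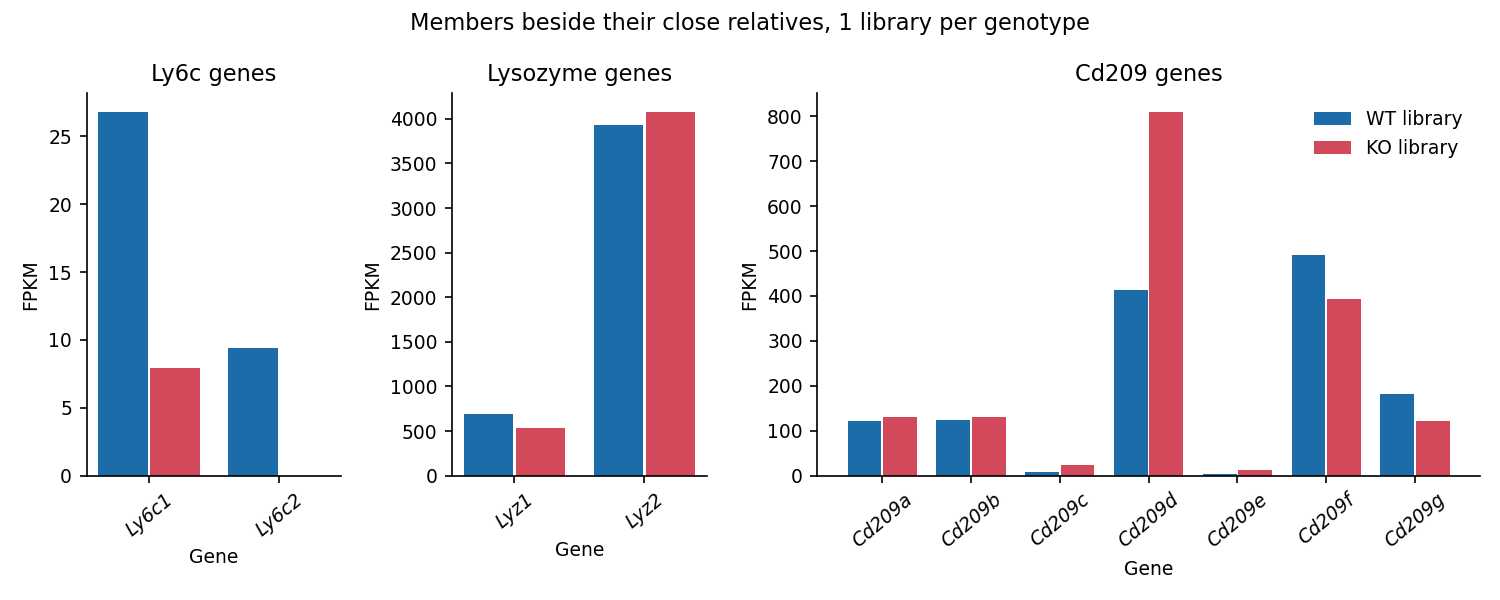
FPKM of the Ly6c, lysozyme and Cd209 genes as bars from 0, WT library and KO library side by side, each panel with its own axis. Both Ly6c genes are lower in KO, the lysozyme pair is level at 4630.3 and 4618 FPKM in sum, and Cd209a is level while Cd209d is at 414 FPKM for WT and 810.4 for KO.

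Plac8 encodes a small cysteine-rich protein of myeloid and lymphoid cells and is high in classical monocytes. It went against Ly6c2, at 1.58 FPKM for WT and 16.96 for KO, a ratio of KO to WT of 10.7 and a difference of 2.80. This difference lay inside the middle 95% of genes at 5 to 10 FPKM, from -3.91 to 3.90. The WT value rests on an estimated 7 fragments, with an exact Poisson 95% interval of 2.81 to 14.4, and the KO value on 95, with an interval of 76.9 to 116. These intervals cover counting error only, and after 18 cycles of PCR the fragments are not independent molecules. Plac8 shares no 50-base window with another annotated gene.

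Plac8 is known from neutrophils and plasmacytoid dendritic cells too, and some markers of both were higher in KO. All 7 neutrophil markers compared had a higher value in KO, 2 of them by 3-fold, S100a9 at 63.4 and 301 FPKM and Ngp listed at 0 and at 2.61. Ngp, and Retnlg at 0.385 and 2.46, reached 1 FPKM only in KO, so the filter set their direction. The list median was 1.30, and 0.61 with 1 FPKM required in both libraries. Over all compared genes 13.6% were higher by 3-fold and 27.3% passed it in either direction. The count of 2 of 7 is thus above the share higher and close to the share in either direction. The 10 matched neutrophil markers summed to 197 FPKM for WT and 569.8 for KO, most of it in S100a9 and in S100a8, which was at 73.3 and 182 FPKM. The granule genes Camp, Ltf and Mmp8 were listed at 0 in both. Of 4 plasmacytoid markers compared 1 was higher by 3-fold, against 13.6% of all compared genes. It was Siglech, at 1.42 FPKM for WT and 8.31 for KO. The 6 markers summed to 137 and 189 FPKM, with Ccr9 and Ly6d listed at 0 in both. Tcf4, the defining regulator of these cells, was at 39.4 FPKM for WT and 23.2 for KO. The part of either cell type in the Plac8 difference was not tested.

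Cd209a encodes a C-type lectin of the DC-SIGN family and marks monocyte-derived and CD11b+ dendritic cells as well as some tissue macrophages. It was at 122 FPKM for WT and 131 for KO, a difference of 0.09, and was the most alike of the 8 genes after Lyz2. Of its relatives, Cd209b was at 123 and 129.9 FPKM, close to Cd209a in both libraries although Cd209a shares no 50-base window with any other gene. Cd209d was at 414 FPKM for WT and 810.4 for KO, Cd209f at 491 and 394, and Cd209g at 182 and 123. Cd209f and Cd209g share 35.6% and 38.7% of their 50-base windows with each other, so the split between these copies is uncertain. Cd209c, at 7.88 and 22.7 FPKM, and Cd209e, at 4.68 and 12.0, were the lowest of the family. None of the 7 genes passed 3-fold, and the family summed to 1345 FPKM for WT and 1623 for KO. Over all compared genes 27.3% passed it, but only 2.14% of those at 100 FPKM or more, where most of the family lies.

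Napsa encodes an aspartic protease of the endolysosomal pathway. It was at 20.4 FPKM for WT and 11.7 for KO, a difference of -0.75, on an estimated 190 and 138 fragments, some of which may lie in the stretches shared with Gm15396. It thus lay within 3-fold, at a level where 20.6% of genes did not. Ctsd, a lysosomal aspartic protease of the same family, was at 1347 FPKM for WT and 807.5 for KO, and Ctse was listed at 0 in both.

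The relatives of Ear2 were read in its place only as neighbours. Its coding sequence differs from that of Ear1 at 22 of 468 bases, and 41.5% of its 50-base windows occur in other genes. Ear1, Ear10, Ear14 and Rnase2b were listed at 0 in both libraries. Rnase2a was at 110.2 FPKM for WT and 37.4 for KO. Ear genes are known from eosinophils, of whose 6 markers Siglecf, Prg2, Epx and Il5ra were listed at 0 in both libraries, Ccr3 was listed at 0 for WT and at 7.45 FPKM for KO, and Alox15 was at 6.50 and 25.7.

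Other genes of classical monocytes showed no common direction, with 8 higher and 6 lower in value in KO. Of 14 compared, 1 was higher and 2 were lower in KO by 3-fold, and the median difference was 0.13. This count of 3 of 14 is below the 27.3% of all compared genes past 3-fold. F10, which encodes coagulation factor X, was at 1.90 FPKM for WT and 10.7 for KO. Chil3, a chitinase-like protein, was at 2.10 FPKM in WT and listed at 0 in KO, and Ms4a4c was at 3.18 and 0.164. The highest of the list were near level, with the interferon-induced Ifitm3 at 2208 and 2624 FPKM, S100a4 at 1117 and 1088, and F13a1, which encodes a coagulation transglutaminase, at 520.2 and 585. Ccr2, the receptor by which monocytes leave the bone marrow and enter tissue, was at 29.4 FPKM for WT and 9.78 for KO, a difference of -1.50 that lay just within 3-fold on this scale although the plain WT to KO ratio was 3.01. Mgst1, a microsomal glutathione transferase, was the mirror case, at 16.2 and 49.3 FPKM, a difference of 1.54 and a KO to WT ratio of 3.03. Ifitm6 was at 54.9 and 127 FPKM and Samhd1 at 57.2 and 117, both also within 3-fold. Hp, which encodes haptoglobin, was at 1.78 FPKM in WT and listed at 0 in KO.

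Nonclassical monocytes, which patrol vessels and are low in Ly6C, were represented by 12 genes, of which 10 were compared. Of these, 0 were higher and 3 were lower in KO by 3-fold, and the median difference was 0.02. Over all compared genes 27.3% passed 3-fold in either direction and 13.7% were lower. The count of 3 of 10 is thus close to the share in either direction and above the share lower. Cx3cr1, the fractalkine receptor, was at 12.1 FPKM for WT and 2.99 for KO. Spn, which encodes the sialophorin CD43, was at 27.1 and 5.98, and Cd300e was at 8.41 and listed at 0. Cd300e reached 1 FPKM only in WT, where it was higher. These 3 genes lie at mean levels of 2 to 20 FPKM, where 20.6% to 49% of genes passed 3-fold in either direction. Nr4a1, the nuclear receptor on which these cells depend, was among the high genes at 608 FPKM for WT and 489 for KO. Pglyrp1 went the other way within 3-fold, at 11.1 and 25.6 FPKM.

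Of 8 transcription factors of monocyte development, 0 passed 3-fold, and their differences ran from -0.62 to 0.62 with a median of -0.30. Over all compared genes 27.3% passed it. All 8 had a mean of 20 FPKM or more, where 2.14% to 11.7% of genes passed, so 0 of 8 is near the share at their level. Spi1, which encodes PU.1, was at 367 FPKM for WT and 301 for KO. Klf4 was at 276 and 179, Irf8 at 27.3 and 21.9, and Cebpb, the highest difference of the list, at 108 and 166.

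**Figure D4:**
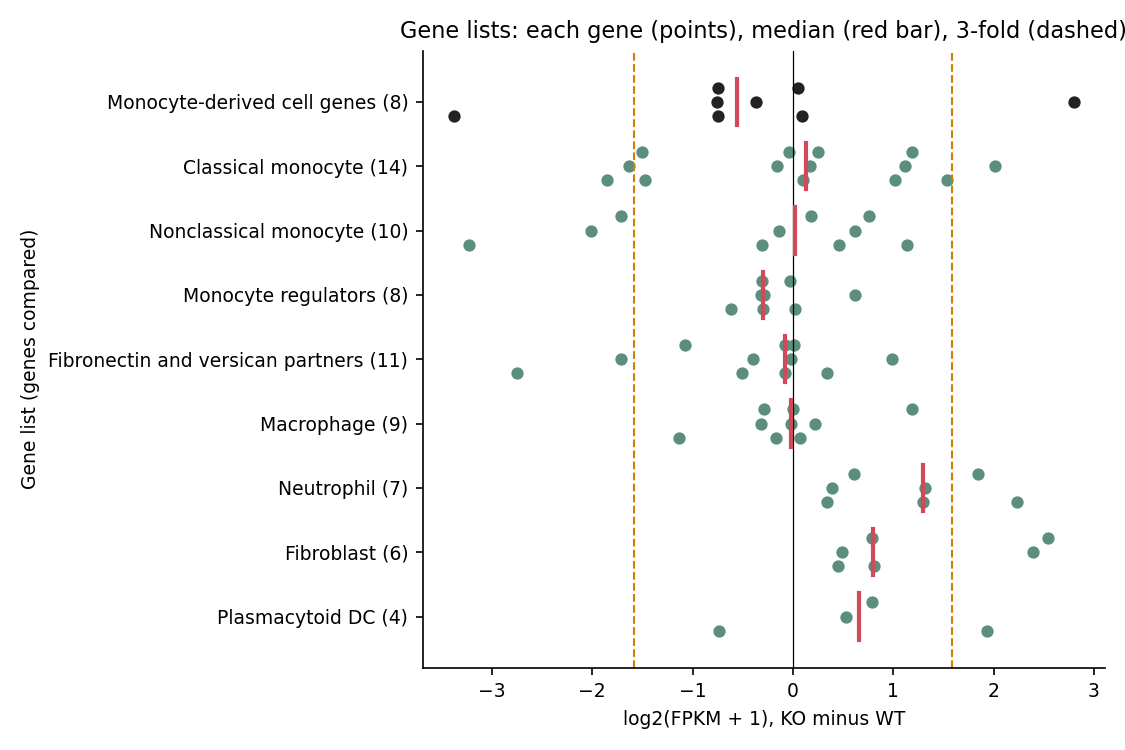
Difference in log2(FPKM + 1), KO minus WT, for each compared gene of 9 lists (points, with the number compared in brackets), the list median (red bar) and 3-fold (dashed lines). The 8 monocyte-derived cell genes have a median of -0.56, the monocyte regulators lie between -0.62 and 0.62, and every neutrophil and fibroblast marker compared lies above 0. Of these markers Ngp, Retnlg, Col1a2 and Pdgfra reached 1 FPKM only in KO, so the filter set their direction.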

How the data were processed

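The data were 1 WT and 1 KO library of sorted ATM. Poly(A) RNA was copied with random primers and amplified for 18 PCR cycles. The submitters' processing notes name CASAVA 1.8.2, TopHat2 2.0.9, Cufflinks 2.2.1 and the build mm9. The annotation, filters and read length are not given in the sources used here. The authors deposited FPKM per gene, which are not counts, so no count model was used. The mutant column was taken as KO, the only library that is not WT.

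Of 20749 rows, 401 full repeats were dropped and 18 further rows of a repeated identifier were summed, which left 20330, and GENCODE M21 gave symbols to 98.5% of them. Differences are log2(FPKM + 1), KO minus WT, with the scaling as deposited, a scale that understates changes of low genes. Genes reaching 1 FPKM in either library were compared, and the threshold was 3-fold. Depth came from the most crowded 4% wide window among low values of FPKM x kb in coding genes with a single transcript. Its median was 0.168 in WT (7 genes) and 0.133 in KO (10 genes), and was taken as 1 fragment. Below the window lay 5 genes in WT and 1 in KO, so depths and fragment numbers are rough. Fragment numbers used the median length of annotated coding transcripts. Coding sequences were aligned globally, and windows of 50 and 100 bases were matched exactly on both strands. Procedures were tested on simulated data. Python 3.11.15, pandas 2.3.3, numpy 2.4.6 and scipy 1.17.1 were used.

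The 9 genes and the lists were chosen with earlier results of these data known. Genes named were the 9, those of the other lists past 3-fold, and those that describe relatives, defining markers or the highest of a list. Alternatives tried were pseudocounts of 0.1 and 0.01, omitting the filter, 1 FPKM in both libraries, a 2-fold threshold, scaling to the same sum or upper quartile, and the highest value of a repeated identifier.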

Additional observations from a re-analysis of the deposited data

How the results depend on the processing

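No paired analysis was possible because there was a single library per genotype, and for the same reason no library could be left out. Of 93 values recomputed for 13 results, 83 stayed within the allowance of 1.5-fold, 10 moved and 0 reversed. The filters and the handling of repeated identifiers left the difference of each of the 8 genes unchanged where it was still compared. A change of pseudocount cannot reverse a difference. This tally therefore does not measure how stable the results are. The difference of Ly6c2 was -6.57 at a pseudocount of 0.1 and -9.88 at 0.01, values that the pseudocount sets because KO is listed at 0. At 0.01 the difference of Plac8 was 3.41 and that of Vcan was -1.35. Requiring 1 FPKM in both libraries removed Ly6c2 and Vcan, which left 0 of the monocyte-derived cell genes lower by 3-fold and a median of -0.16. Of 102 genes compared in the other lists, 11 were higher and 10 lower by 3-fold, where 27.3% of all compared genes passed. With 1 FPKM in both libraries 4 and 4 of 82 did, against 11.5% of all genes. At 2-fold 22 and 19 of 102 did, against 45.6%. With a pseudocount of 0.01, 15 were higher and 16 lower by 3-fold, against 37.0% of all genes past it in either direction. Scaling to the same sum multiplied KO values by 1.031 and moved the median of all genes to 0.071, and changed no call among the 8 genes. Precision is limited by depth for Plac8, Vcan and Ly6c2.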

Other observations

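Genes that draw monocytes into tissue were mostly near level between the libraries. Of 11 compared, 0 were higher and 1, Cx3cr1, was lower in KO by 3-fold. Over all compared genes 13.6% were higher and 13.7% lower, so 1 of 11 is not above the share lower. Ccr2, also of this list, lay just within 3-fold at 29.4 FPKM for WT and 9.78 for KO. The monocyte chemoattractant Ccl2 was at 726 FPKM for WT and 1085 for KO, Ccl7 at 578 and 429, and Ccl12 at 141 and 144. Cx3cl1, the ligand of Cx3cr1, was at 3.13 FPKM for WT and 0.467 for KO. Selplg, which encodes a selectin ligand, was at 157 and 152 FPKM, and the integrin subunit Itgb2 was at 188 and 216.

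Among genes shared by monocyte-derived and conventional dendritic cells, 6 were compared. Of these, 1 was higher by 3-fold, near the 13.6% of all compared genes. It was the transcription factor Zbtb46, listed at 0 for WT and at 9.45 FPKM for KO, which reached 1 FPKM only in KO. The lectin genes Clec10a and Mgl2 were high in both libraries, at 438 and 400.4 FPKM and at 405 and 602. Irf4 was at 13.4 and 15.6 FPKM and Itgax, which encodes CD11c, at 35.5 and 27.0. Of 3 markers of cross-presenting dendritic cells compared, 1 was lower by 3-fold, against 13.7% of all compared genes. It was Cadm1, at 14.3 FPKM for WT and 0.676 for KO, with Xcr1 at 1.65 and 0.0588. Both reached 1 FPKM only in WT, where they were higher, and Clec9a was listed at 0 in both libraries. The B cell gene Cd79b was listed at 0 for WT and at 5.52 FPKM for KO, while Cd79a was at 2.50 and 0.222. The 6 matched T and NK cell markers were listed at 0 in both libraries.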
